A study of Yarrowia lipolytica CLIB122 with 6 samples.

Results

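The transcripts that kept the steadiest levels across both Yarrowia lipolytica strains of the series are 150 of the 6452 rows in the expression table. They were chosen from the measured values themselves. From the rows with a gene number below 7000000 and a level averaging 100 FPKM or more, 1851 in all, the 200 with the highest C24 mean among those with an A24 to C24 ratio of 0.5 to 2 were set aside. Of the 1651 that remained, called the pool here, the 150 with the lowest coefficient of variation were kept. The coefficient of variation (CV) is the SD over the 6 libraries divided by their mean. FPKM is fragments per kilobase of transcript relative to the total sequenced, a level corrected for transcript length and library size.

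The data comprised 6 RNA-Seq libraries from cells collected at 24 h, 3 of strain A24 and 3 of strain C24. The labels give only these strain letters. They were taken to stand for YlΔA1-FAR and WT-FAR because the study set no other strains against each other by RNA-Seq. Reading A24 as YlΔA1-FAR and C24 as WT-FAR, and not the reverse, is an assumption. On this reading, A24 carries a small CRISPR/Cas9 deletion in the A1 gene, and C24 has the A1 gene intact. Both carry the fatty acyl-CoA reductase gene FAR of Marinobacter aquaeolei VT8 under the TEFin promoter, with a LEU2 marker, at the IntF site of chromosome F. Their parent is the auxotrophic background strain of the study, of mating type MATA, with PEX17-HA and the alleles lys8-11, leu2-270 and ura3-302. The labels name CLIB122 as the source strain. The level of the A1 gene was not analysed here, since no table used pairs its tag with a gene number, and the reading of the letters was not checked against it. Nothing in the labels says that the 3 libraries of a strain came from separate cultures. The number of fragments behind each value is unknown.

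Y. lipolytica is an oleaginous yeast, a fungus that stores large amounts of lipid and is used to make oils and fatty acid derivatives. Transcripts with constant levels are used in such work as internal references, against which the level of another transcript is expressed in RT-qPCR. FPKM is a relative measure and does not give the amount of RNA per cell. Its sum differs between libraries, so a steady FPKM value is also not a steady share of the summed FPKM. A RefSeq table of strain CLIB89 (W29), assembly ASM176148v1, gave locus tags for 148 of the 150 members, all of them protein-coding. That table holds no product names, so members are given by gene number and tag, without a role.

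The members ranged in mean level from 100.3 to 1196 FPKM, an 11.9-fold span, with a median of 222 FPKM. The 1501 pool transcripts that were not chosen had a median of 207 FPKM, close to that of the members. Together the members made up 4.06%, 4.02% and 3.91% of the summed FPKM in the A24 libraries and 4.24%, 4.18% and 4.23% in the C24 libraries, a lower share in every A24 library. Their CVs ran from 0.776% to 3.63%, with a median of 2.79%. The other pool transcripts had a median CV of 10.8% and reached 99.3%. These CVs were the basis of the choice and describe the members only.

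Of the members, 18 had a CV under 2%, 76 had a CV of 2% to 3% and 56 had a CV of 3% or more. The gap between the highest and the lowest of the 6 libraries was 7.59% of the mean in the median member and 10.96% in the member with the widest gap. In 16 members it was under 5%. No single library departed from the mean of a member by more than 7.0% in either direction.

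**Figure D1:**
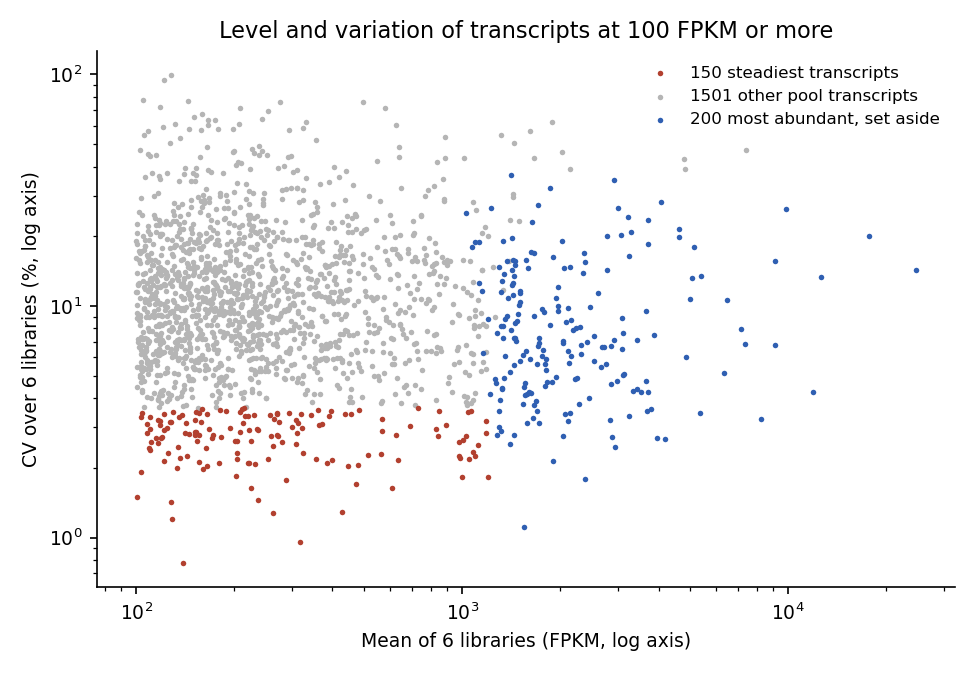
Mean of the 6 libraries in FPKM (x axis, log scale) against the CV over the 6 libraries in percent (y axis, log scale), 1 point per transcript with a gene number below 7000000 and a mean of at least 100 FPKM. The 150 members lie at or under a CV of 3.63%, the 1501 other pool transcripts above it, and the 200 abundant transcripts set aside spread over both ranges.

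The member with the lowest CV was gene 2907712 (YALI1_F06076g). It had 138.95, 139.19 and 141.41 FPKM in the A24 libraries and 139.50, 138.17 and 139.72 FPKM in the C24 libraries, a CV of 0.776%. The C24 values lay within or just under the narrow range of the A24 values, and no other transcript tested in the whole table had a lower CV. Gene 2911022 (YALI1_D29910g) came next, with 322.57, 314.32 and 316.61 FPKM in A24 and 319.01, 320.92 and 320.62 FPKM in C24, a CV of 0.958%. Here all 3 C24 libraries fell inside the range spanned by the A24 libraries.

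Gene 2906434 (YALI1_A18273g) had 130.84, 129.36 and 126.27 FPKM in A24 and 128.91, 128.60 and 129.92 FPKM in C24. Gene 2908295 (YALI1_F19746g) had 130.99, 128.77 and 125.33 FPKM in A24 and 128.53, 127.89 and 127.94 FPKM in C24. Gene 2906083 (YALI1_A00746g) had 232.15, 239.51 and 241.72 FPKM in A24 and 235.91, 234.77 and 235.54 FPKM in C24. In each of these 3 transcripts the C24 libraries lay inside the range of the A24 libraries, which spread wider. Their CVs were 1.2%, 1.42% and 1.46%.

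Gene 2910716 (YALI1_D26586g) had 261.68, 267.52 and 262.50 FPKM in A24 and 258.52, 258.79 and 263.72 FPKM in C24. Gene 2908695 (YALI1_F33861g) had 431.92, 424.24 and 418.44 FPKM in A24 and 432.77, 429.42 and 430.82 FPKM in C24. The strains overlapped in both, with a slightly higher A24 mean in the first and a slightly lower one in the second. Gene 2911734 (YALI1_E22592g), the member with the lowest mean level, had 99.85, 102.71 and 100.56 FPKM in A24 and 98.07, 100.68 and 100.07 FPKM in C24.

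Gene 2911294 (YALI1_D20304g) showed the opposite spread, with 225.10, 224.08 and 225.53 FPKM in A24 and 221.04, 223.25 and 231.95 FPKM in C24. Its A24 libraries were nearly equal, and replicate 3 of C24 was the highest of the 6. Gene 2912559 (YALI1_E11943g) had 614.48, 604.40 and 596.58 FPKM in A24 and 622.04, 618.76 and 603.00 FPKM in C24, and was the most abundant of these 10 transcripts. In all 10 the values of the strains overlapped.

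**Figure D2:**
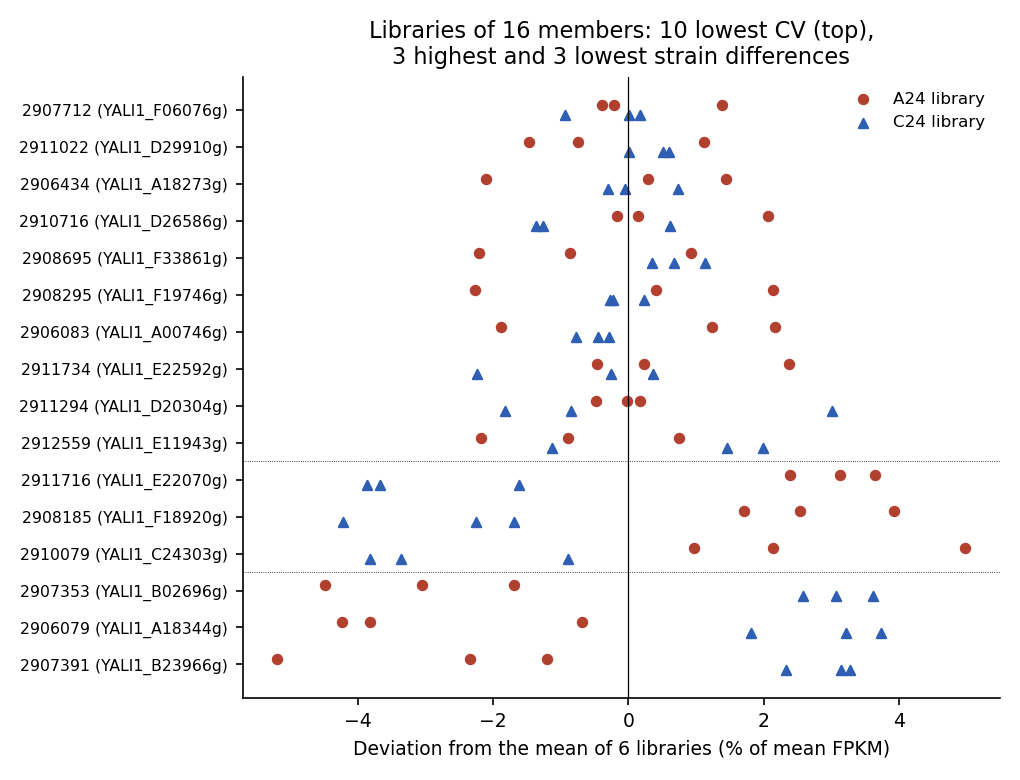
Deviation of each library from the mean of the 6 libraries, in percent of the mean FPKM (x axis), for 16 members (rows), with A24 libraries as circles and C24 libraries as triangles. In the 10 members of lowest CV the strains overlap, and in the 3 members of highest and the 3 of lowest log2 fold change the strains are separate.

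The 5 most abundant members lay between 1096 and 1196 FPKM on average. Gene 2910787 (YALI1_D08884g), the highest, had 1223.53, 1174.60 and 1210.93 FPKM in A24 and 1210.46, 1183.15 and 1171.65 FPKM in C24. Gene 2909790 (YALI1_C13453g) had 1206.35, 1176.25 and 1150.21 FPKM in A24 and 1214.96, 1219.52 and 1142.32 FPKM in C24. The strains overlapped in both transcripts, and the lowest value of the second was C24 replicate 3. Gene 2908030 (YALI1_F19090g) averaged 1102 FPKM in A24 and 1091 FPKM in C24.

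Gene 2909790 and the other 2 of these abundant members were lower on average in A24, gene 2909790 with a mean difference of -1.23%. Gene 2906983 (YALI1_B10607g) had 1144.61, 1124.35 and 1193.26 FPKM in A24 and 1221.16, 1184.14 and 1208.35 FPKM in C24, a mean difference of -4.19%. Gene 2910451 (YALI1_D01431g) had 1108.75, 1092.54 and 1100.90 FPKM in A24 and 1133.93, 1100.49 and 1166.60 FPKM in C24, a mean difference of -2.91%. In both, 1 C24 library lay within the range of the A24 libraries.

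The choice reached all levels of the pool. It took 61 of the 775 pool transcripts at 100 to 200 FPKM (7.87%), 54 of the 507 at 200 to 400 FPKM (10.7%), 16 of the 244 at 400 to 800 FPKM (6.56%) and 19 of the 125 at 800 FPKM or more (15.2%). Over the whole pool it took 9.09%. The median CV of the members in these bands was 2.82%, 2.88%, 2.53% and 2.63%, and that of all pool transcripts was 9.87%, 9.96%, 10.6% and 9.24%. Across the 150 members, which share the same 6 libraries, level and CV had a Spearman correlation of -0.02.

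The limit of the choice does not mark a break in the values. Just inside it, gene 2906873 (YALI1_B04559g) had a CV of 3.60%, gene 2908588 (YALI1_F21647g) of 3.61% and gene 2912934 (YALI1_E01463g) of 3.63%. Just outside it, gene 2907023 (YALI1_B24351g) had a CV of 3.64%, and genes 2912779 (YALI1_E14234g) and 2911646 (YALI1_E20269g) both had a CV of 3.67%. Gene 2912934 had 772.09, 749.98 and 721.41 FPKM in A24 and 697.02, 727.50 and 716.42 FPKM in C24. Gene 2907023 had 146.44, 151.87 and 152.16 FPKM in A24 and 156.63, 159.99 and 161.35 FPKM in C24. The strains overlapped in gene 2912934, inside the limit, and were separate in gene 2907023, outside it.

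The name of steadiest transcripts holds for the pool and not for the whole table. In all, 314 rows had a CV at or under 3.63%. Besides the 150 members these were 27 of the 200 abundant transcripts set aside, 134 transcripts with a mean under 100 FPKM, 2 with a gene number above the limit and 1 whose identifier begins with BGI_novel.

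The members differed little between the libraries. Summed over the 150, the A24 libraries held 51566, 50942 and 50939 FPKM in replicates 1 to 3 and the C24 libraries 51282, 51295 and 51756 FPKM. The median member deviated from its own mean by 0.94%, -0.65% and -0.81% in the A24 libraries and by -0.05%, -0.26% and 0.78% in the C24 libraries. These offsets in FPKM, unlike the shares of the summed FPKM, did not follow the strains, since A24 replicate 1 and C24 replicate 3 were both high. A24 replicate 1 was the highest library in 39 members and C24 replicate 3 in 31, and A24 replicates 2 and 3 were the lowest in 36 and 34. In the pool transcripts that were not chosen, the median deviation was negative in all 3 A24 libraries, from -4.98% to -2.62%, and positive in all 3 C24 libraries, from 2.45% to 5.14%. The choice keeps transcripts with little difference between the strains on the deposited scale. The lack of a strain pattern in the members, and their contrast with the rest, therefore follow at least in part from the choice.

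**Figure D3:**
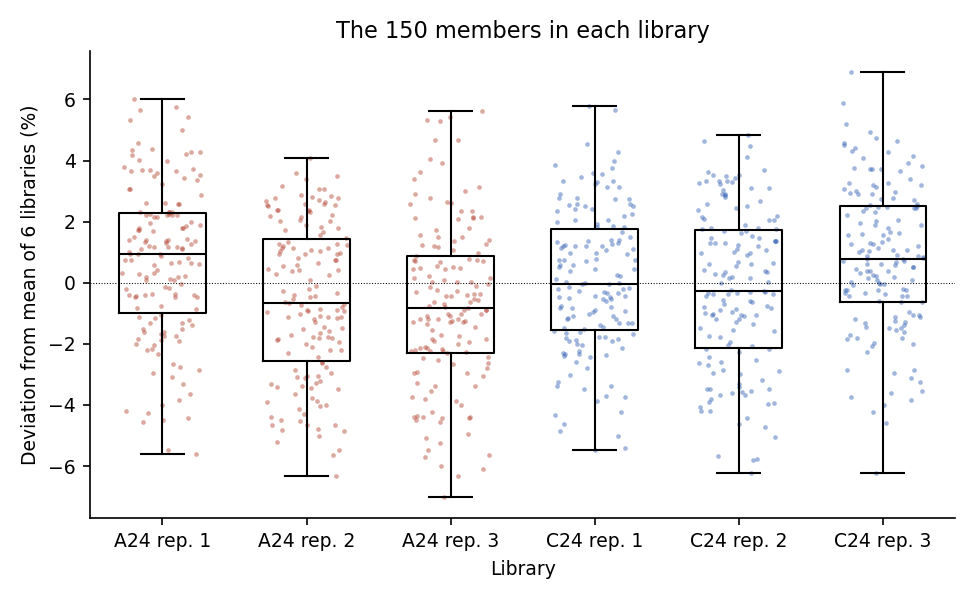
Deviation of each of the 150 members from its mean over the 6 libraries, in percent (y axis), by library (x axis), with 1 point per member, boxes from the lower to the upper quartile, the median as a line and whiskers to the lowest and highest member. The medians lie between -0.81% and 0.94%, and no member passes 7.0% in either direction.

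Within a strain, the members varied somewhat more among the A24 libraries. The median CV of a member was 2.27% within A24 and 1.89% within C24 (n = 3 libraries each), and it was larger in A24 for 96 of the 150 (64.0%). In the rest of the pool it was larger in A24 for 902 of 1501 transcripts (60.1%), with medians of 3.81% in A24 and 3.05% in C24. The rest of the pool thus had the wider spread in the same strain. The difference in spread between the strains was not tested.

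The strain means of the members differed by -5.98% to 6.30% (A24 relative to C24), and in 54 of the 150 by less than 2%. The A24 mean was higher in 67 and lower in 83 members. The median log2 fold change was -0.0057, beside -0.09 over the 6052 transcripts tested, and the median size of the log2 fold change was 0.04, beside 0.27. The share of a member's sum of squares that lay between the strains had a median of 30.7%, beside 91.1% in the rest of the pool. All of these values entered the choice through the CV, so they say how narrow the members are and nothing further.

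In 37 of the 150 members (24.7%) all 3 values of one strain still lay above all 3 of the other, beside 71.3% of all transcripts tested. A24 was the higher strain in 17 of them, by 3.10% to 6.30%, and the lower strain in 20, by 2.71% to 5.98%. Over all transcripts tested, 28.3% were separate with A24 higher and 43.1% with A24 lower. The count of 37 rose beyond 1.5 times, to 62, 59 and 62, without A24 replicate 1, A24 replicate 3 or C24 replicate 3, comparisons in which 2 libraries of one strain are set against 3 of the other.

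The largest increase among the members was in gene 2911716 (YALI1_E22070g). It had 279.45, 276.04 and 278.05 FPKM in the A24 libraries and 259.19, 259.68 and 265.26 FPKM in the C24 libraries. All A24 values were above all C24 values, with a log2 fold change of 0.09 (standard error 0.03). Gene 2908185 (YALI1_F18920g) had 120.76, 121.75 and 123.39 FPKM in A24 and 113.71, 116.06 and 116.72 FPKM in C24. Gene 2910079 (YALI1_C24303g) had 269.45, 259.14 and 262.13 FPKM in A24 and 248.02, 254.37 and 246.84 FPKM in C24. Both were separate between the strains too, with A24 5.60% and 5.54% above C24.

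The largest decrease was in gene 2907353 (YALI1_B02696g), which had 1017.76, 1032.95 and 1047.46 FPKM in A24 and 1093.05, 1104.06 and 1098.22 FPKM in C24. The C24 libraries were tightly grouped above the A24 libraries, with a log2 fold change of -0.09 (standard error 0.03). Gene 2906079 (YALI1_A18344g) had 1001.96, 1034.54 and 997.58 FPKM in A24 and 1075.29, 1060.61 and 1080.71 FPKM in C24. Gene 2907391 (YALI1_B23966g) had 286.70, 278.33 and 290.06 FPKM in A24 and 302.80, 303.22 and 300.43 FPKM in C24. In both, the mean difference was -5.67% and the strains did not overlap.

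In the limma comparison of all 6052 transcripts, 67.2% had an adjusted p-value under 0.05, 26.8% with higher and 40.4% with lower levels in A24. Among the members 2 did, gene 2911716 (higher) and gene 2907353 (lower), and 0 passed when a log2 fold change beyond 1 was required as well, beside 6.56% of all transcripts. Since the choice used the same values, this count is a description. Of the 6 fits that each left out 1 library, gene 2911716 missed the threshold in 6, and gene 2907353 missed it in the 5 other than the one without A24 replicate 3. Their log2 fold changes stayed between 0.08 and 0.10 and between -0.10 and -0.08. With equal FPKM totals gene 2911716 had a log2 fold change of 0.02 (limma adjusted p = 0.667), and with median-of-ratios scaling gene 2907353 had 0.0012 (limma adjusted p = 0.98). Both missed the threshold with eBayes without a trend (limma adjusted p = 0.0671 for gene 2911716 and 0.066 for gene 2907353). The median standard error of a member's log2 fold change was 0.04, beside 0.06 over all transcripts tested.

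A measure that the choice did not use is the level in a library that was left out of it. The choice was repeated on 5 libraries at a time, and the absolute deviation of the sixth library from the mean of the other 5 was taken. With an A24 library left out, the 150 transcripts chosen on the other libraries deviated by a median of 2.67%, 3.11% and 3.49% in replicates 1 to 3, beside 10.6%, 11.7% and 11.9% in the other transcripts of the same pool. With a C24 library left out, the medians were 2.27%, 3.03% and 3.01%, beside 11.8%, 10.6% and 11.97%. The chosen transcripts were thus nearer to their level in 6 of 6 libraries. Other libraries of the same strain stayed in each choice, so transcripts that differed between the strains were already mostly passed over. The gap to the other transcripts therefore holds strain difference as well as spread between libraries, and these parts were not separated. The libraries share most of their data between these choices and were not tested as independent values.

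Some transcripts that were steady over 5 libraries were not so in the sixth. A deviation beyond 10% was seen in 7, 6 and 18 of the 150 when A24 replicates 1 to 3 were left out and in 1, 1 and 10 when C24 replicates 1 to 3 were left out. In the rest of the pool such deviations made up 52.4% to 59.4%. Of the 150 members chosen on all libraries, 114 to 139 were chosen again on 5, fewest without A24 replicate 3, and 97 were chosen in all 6 of these choices.

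**Figure D4:**
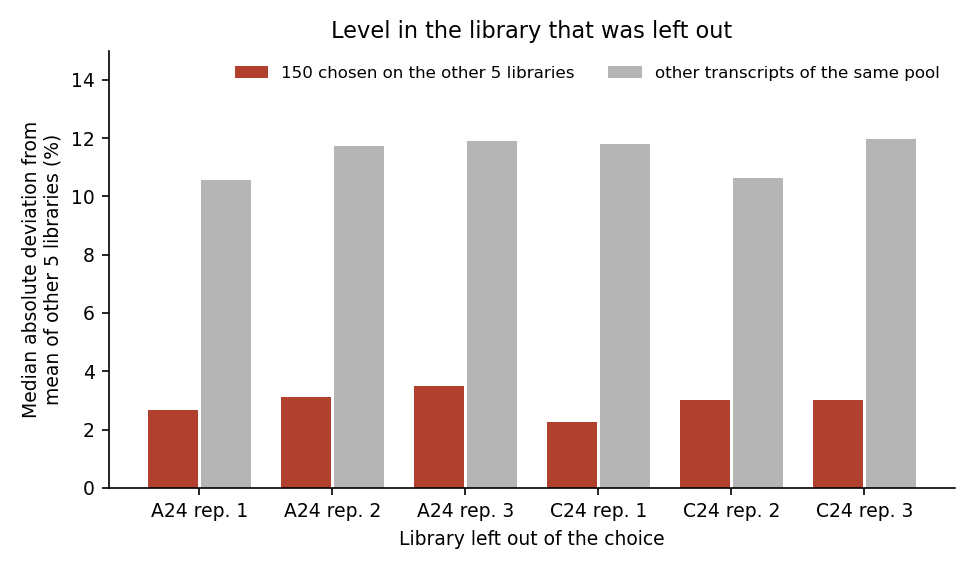
Median absolute deviation, in percent, of the library left out (x axis) from the mean of the other 5, for the 150 transcripts chosen on those 5 and for the other transcripts of the same pool. The bars of the chosen transcripts lie between 2.27% and 3.49%, and those of the other transcripts between 10.6% and 11.97%.

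Which transcripts are steadiest depended on how the libraries were put on 1 scale. The summed FPKM of a library was 1.01 to 1.04 times the geometric mean of the 6 in A24 and 0.967 to 0.982 times in C24. The median-of-ratios method scales each library by the median over transcripts of the ratio to the transcript's geometric mean over the libraries. Its factors ran the other way, at 0.950 to 0.981 in A24 and 1.01 to 1.05 in C24. Deposited values lie between these scales. With median-of-ratios scaling the members' log2 fold changes were all positive, from 0.0012 to 0.18 with a median of 0.08. With equal FPKM totals they ran from -0.16 to 0.02 with a median of -0.07, and 6 were positive. The same scalings brought the median of all transcripts tested to 0.0017 and -0.16.

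The members that split between the strains changed accordingly. With median-of-ratios scaling 83 members were separate, 83 higher and 0 lower in A24, and 54 had an adjusted p-value under 0.05, all of them higher. With equal totals 76 were separate and 48 had an adjusted p-value under 0.05, all of them lower in A24. Over all transcripts, 1620 higher and 2447 lower calls became 2061 and 1899 with median-of-ratios scaling and 1334 and 2969 with equal totals. Each of these scalings moves all members by nearly the same amount, and they were chosen within a narrow band around 0, so these one-sided counts follow from the shift.

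When the whole choice was repeated on rescaled values, 49 of the 150 members were chosen again with median-of-ratios scaling, 75 with equal totals and 117 with quantile normalization. The members kept with median-of-ratios scaling had a median log2 fold change of -0.05 on the deposited scale, and those kept with equal totals had 0.03. Only 5 members were chosen on the deposited values and on all 3 rescaled versions. They are named here after their values were seen. Besides genes 2911022 (YALI1_D29910g) and 2908695 (YALI1_F33861g), given above, they were genes 2912324 (YALI1_E06616g), 2909045 (YALI1_F20965g) and 2908465 (YALI1_F32363g).

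Gene 2912324 (YALI1_E06616g) had 199.36, 200.81 and 200.03 FPKM in A24 and 200.57, 204.66 and 208.99 FPKM in C24. Gene 2909045 (YALI1_F20965g) had 375.90, 375.48 and 393.33 FPKM in A24 and 392.26, 380.59 and 388.47 FPKM in C24. Gene 2908465 (YALI1_F32363g) had 106.38, 107.72 and 113.09 FPKM in A24 and 109.51, 111.73 and 111.77 FPKM in C24. The strains overlapped in all 3, and their CVs on the deposited scale were 1.84%, 2.10% and 2.38%. The A24 mean was slightly lower than the C24 mean in each of the 5 transcripts. Gene 2907712, the steadiest of all on the deposited scale, was not among them.

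**Figure D5:**
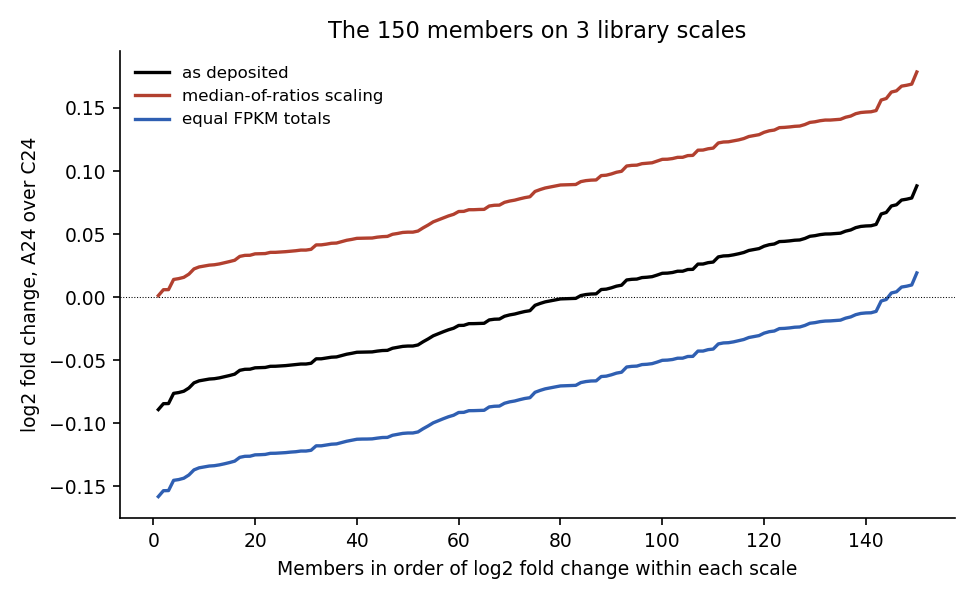
Log2 fold change of A24 over C24 (y axis) of the 150 members, in order within each scale (x axis), for the deposited values, after median-of-ratios scaling and with equal FPKM totals. The deposited values lie on both sides of 0, those after median-of-ratios scaling are all above 0 and all but 6 of those with equal totals are below 0.

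Position in the genome was not used in the choice. Of the 148 members with a tag, 11 lay on chromosome A (7.43%), 22 on B (14.9%), 21 on C (14.2%), 23 on D (15.5%), 34 on E (23.0%) and 37 on F (25%). Among the 1474 other pool transcripts with a tag the shares were 8.14%, 15.7%, 13.3%, 16.8%, 23.9% and 22.0% in the same order. The members were thus spread over the 6 chromosomes much as the pool was, and no share differed by more than a few percentage points.

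In the order of the protein-coding genes of strain CLIB89, 5 pairs of members were direct neighbours. How many such pairs a random choice from the pool would give was not worked out, so the count says nothing about grouping. Gene 2907712 (YALI1_F06076g), with the lowest CV, stood next to gene 2907701 (YALI1_F06109g), which averaged 222 FPKM with a CV of 2.10%. Genes 2912559 (YALI1_E11943g) and 2912558 (YALI1_E11875g) averaged 610 and 566 FPKM, with CVs of 1.64% and 3.27%. Genes 2912290 (YALI1_E27383g) and 2912289 (YALI1_E27367g) averaged 472 and 151 FPKM, with CVs of 1.71% and 3.21%. The members of a pair could differ in level by a wide margin. In the pair of genes 2908115 (YALI1_F03765g) and 2908116 (YALI1_F03778g), the log2 fold changes were 0.06 and -0.05, and in that of genes 2908939 (YALI1_F27834g) and 2908940 (YALI1_F27871g) they were 0.06 and -0.05.

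The other genes next to members were not steady as a group. The 182 direct neighbours that were no members themselves and had a mean of at least 10 FPKM had a median CV of 10.4% and a median level of 61.9 FPKM. The 1726 neighbours of the other pool transcripts, chosen in the same way, had a median CV of 11.02% and a median level of 62.1 FPKM. The lower and upper quartiles of the CV were 6.65% and 15.96% in the neighbours of members and 7.06% and 17.2% in the others, ranges that nearly coincide. Genes that neighbour both a member and another pool transcript are counted in both groups.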

How the data were processed

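RNA-Seq was measured in 6 libraries, 3 of strain A24 and 3 of strain C24. The authors removed rRNA, sheared the RNA, used random primers, sequenced on the BGISEQ-500 platform and filtered the reads with SOAPnuke. The submitters' processing notes list HISAT2 2.0.4, Bowtie2 2.2.5, RSEM 1.2.12 and DESeq2 1.4.5. The authors deposited FPKM values per transcript and library, rounded to 2 decimals. The genome build of this step is not given in the sources used here. The fragments per library are unknown, and counting error could not be given.

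The members and lists were chosen with earlier results of these data known. Genes were named by a rule: the 10 members of lowest CV, the 5 of highest mean, the 3 of highest and 3 of lowest log2 fold change, and 3 on each side of the CV limit. Lists by product name could not be used, because the RefSeq table holds no product names. Of its coordinates, only the start was used, to put the genes in order along each chromosome. Its lengths were not used.

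Strains were compared with limma 3.58.1 (R 4.3.3, eBayes with trend) on log2(FPKM + 0.1), over transcripts that averaged 1 FPKM or more, with Benjamini-Hochberg adjustment over all of them. The pseudocount slightly understates fold changes. For differential expression the study's methods name NOISeq, whereas the submitters' notes list DESeq2. Neither was run, and limma on a log scale was used for the FPKM values in their place. An exact permutation test of 3 against 3 libraries cannot give a p-value below 0.1, and limma's p-values measure the spread between these libraries, which may be technical. Python 3.11.15, pandas 2.3.3 and matplotlib 3.10.9 served for tables and plots. Alternatives were other pseudocounts and filters, 3 scalings, a replicate block, eBayes without a trend, other limits of the choice and each library left out.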

Additional observations from a re-analysis of the deposited data

How the results depend on the processing

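The number of members with an adjusted p-value under 0.05 in limma, 2 as reported, was 54 with median-of-ratios scaling, 48 with equal FPKM totals and 17 with quantile normalization. It was 0 with eBayes without a trend, where 2 members had an unadjusted p-value under 0.05, and 0 to 2 with each library left out, with 0 to 2 unadjusted in the 5 fits without a call. The median log2 fold change of the members, -0.0057 as reported, was 0.085 and -0.075 with median-of-ratios scaling and equal totals. The members separate between the strains, 37 as reported, were 83 and 76 with these scalings and 49 to 62 with each library left out. Gene 2907353 had a log2 fold change of 0.0012 with median-of-ratios scaling, against -0.09 as reported. This scaling moved all members by nearly the same amount. The cause of the differing library scales was not tested.

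The CV limit of 3.63% was 4.15% with equal totals, 3.14% and 5.06% with a pool from 50 and from 200 FPKM, 3.42% with the abundant transcripts kept, and 3.26% to 3.78% with each library left out. The members chosen again were 49 and 75 with median-of-ratios scaling and equal totals, 89 with a pool from 200 FPKM, and 114 to 139 with each library left out. The limit was not compared for the SD of log2 values, which has another unit. The number of transcripts called over the whole table stayed within 1.5 times. The deviation of a library left out, as a median over the 6 libraries, was 2.87% to 3.07% over the 3 scalings against 3.02% as reported, but its highest library reached 5.54% with equal totals, against 3.49% as reported. Gene 2911716 had a log2 fold change of 0.02 with equal totals, against 0.09 as reported.

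With the replicate number as a block, 2 members were called, both shared with the fit without it, and 4251 transcripts in all. Deviations of same-numbered libraries from their strain means had correlations of -0.02, 0.04 and 0.08 across transcripts, and the labels name no link between them, so the samples share only a number. The block changed no call among the members. The unknown depth limits how far the spread of a member can be set against counting error.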
